A study of Mus musculus with 3 samples.

Results

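The genes described here encode proteins of the endothelial surface, of the junctions between endothelial cells and of the secretory output of those cells. They were Pecam1, Cdh5, Eng, Emcn, Esam, Egfl7, Robo4, Vwf, Ptprb and Ly6c1. Members were all probe sets of the array that GEO's platform annotation assigns to exactly 1 of these 10 symbols. The rule found 14 probe sets of 9 genes, of 20393 probe sets of 12394 genes in all. The annotation gives Ly6c1 no probe set of its own, since the Ly6c probe set is assigned to both Ly6c1 and Ly6c2.

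RNA came from 3 samples of normal muscle of littermate controls aged 3 to 6 weeks, called muscle 1, muscle 2 and muscle 3, with 1 array each. They form a single group, so the data hold no contrast between conditions. In the study they served as normal tissue beside tumours derived from Pax7-expressing satellite cells, and the tumour arrays were not analysed here. The sources used here do not give the muscle dissected, the strain or the alleles of the littermates. The labels' treatment text describes an injection of 4-hydroxytamoxifen into the hindlimb of mice that formed tumours and does not say whether these littermates received it. Nothing states that the samples came from separate animals, so the SDs and p-values below cover the spread among these 3 samples alone, and that spread may be technical.

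Endothelial cells line every vessel, and skeletal muscle is supplied by a dense bed of capillaries that run along the fibres. Neighbouring endothelial cells are held together by VE-cadherin, the product of Cdh5, whose cytoplasmic tail binds catenins, and by immunoglobulin-domain adhesion molecules such as those encoded by Pecam1 and Esam. Other members sit on the surface as receptors or mucins, and Vwf and Egfl7 encode secreted proteins. In whole muscle these RNAs come from a minority of cells, and fewer endothelial cells cannot be told apart from less RNA per cell.

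Promoter sequences from RefSeq (build GRCm38.p6) matched 5 members, Eng, Emcn, Egfl7, Robo4 and Ly6c1, with 8 start sites between them. The 250 bases before the start are shown for the 3 members with a single start site in the table, to show a short sequence that the choice of members did not use. Capitals mark AGGAAG or its reverse complement CTTCCT, letters that occur in binding sites of ETS family factors. Each sequence is on the plus strand and reads 5′ to 3′ towards the start.
Eng (chr2:32646345-32646594): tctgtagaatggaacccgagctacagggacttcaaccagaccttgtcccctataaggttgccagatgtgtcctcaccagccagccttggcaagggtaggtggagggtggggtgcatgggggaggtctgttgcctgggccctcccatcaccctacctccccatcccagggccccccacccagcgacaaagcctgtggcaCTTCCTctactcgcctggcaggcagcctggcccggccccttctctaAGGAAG
Emcn (chr3:137340828-137341077): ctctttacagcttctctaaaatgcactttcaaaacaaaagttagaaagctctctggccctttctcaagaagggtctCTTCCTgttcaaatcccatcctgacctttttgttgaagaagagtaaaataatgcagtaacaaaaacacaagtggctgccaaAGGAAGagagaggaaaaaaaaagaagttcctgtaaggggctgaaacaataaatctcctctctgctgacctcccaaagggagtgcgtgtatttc
Robo4 (chr9:37401722-37401971): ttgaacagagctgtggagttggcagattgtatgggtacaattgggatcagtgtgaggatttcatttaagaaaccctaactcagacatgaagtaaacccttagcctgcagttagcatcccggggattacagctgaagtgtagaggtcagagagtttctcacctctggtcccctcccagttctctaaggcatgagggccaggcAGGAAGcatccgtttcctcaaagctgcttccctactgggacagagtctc
The motif occurred 2 times before Eng, 2 times before Emcn and 1 time before Robo4. Over all 8 start sites of the 5 members it was present in 6, against 29.5% of 32851 promoter windows of the same length. Each of the 5 genes had at least 1 window with a match, but Egfl7 and Ly6c1 had several windows and no share by gene was taken. The start sites of Egfl7 held 3, 1 and 0 matches, and the pair of Ly6c1 windows overlap. TATAAA or its reverse complement was present in 1 of the 8 windows, at a start of Ly6c1, and in 12.4% of all windows. The motif was chosen after these sequences had been read, and a match is a description of the letters only. Robo4 and Esam lie on the same chromosome with 2 protein-coding genes between them in the RefSeq table, and Ly6c1 and Ly6c2 are direct neighbours.

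All levels below are log2 values after RMA, a procedure that subtracts background, equalises the distribution of probe signals between arrays and summarises the short probes of a probe set. A difference of 1 is a 2-fold difference. Probe sets bind with different strength, so no gene's level is set against another gene's. The array reports no detection calls here, so a background level was set for every muscle separately, from 111 probe sets of 76 genes restricted to other organs, at their 95th percentile. It stood at 6.90, 6.79 and 6.86 for muscles 1, 2 and 3. The 90th percentile of the same probe sets, used as a laxer level, was 5.99, 5.88 and 6.12. Every muscle had a median of 6.12 over the whole array, and precision is limited by the small number of arrays. Muscle fibre markers were above background in 10 of 10 cases, with Acta1 at 13.62 ± 0.03 and Ckm at 13.61 ± 0.01 (SD, n = 3).

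Of the 14 probe sets, 9 were above the background level in all 3 muscles and 5 in none, against 38.8% of all probe sets above it in all muscles. By gene, 7 of 9 had a probe set above it, against 46.1% of all genes. Pecam1 and Robo4 were the 2 genes below it. At the laxer level 12 probe sets and all 9 genes were above in every muscle, where the shares over the array were 49.8% of probe sets and 57.1% of genes. At the 99th percentile of the background probe sets the count was 5 probe sets, of Cdh5, Eng, Egfl7 and Ptprb, against 26.3%.

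**Figure D1:**
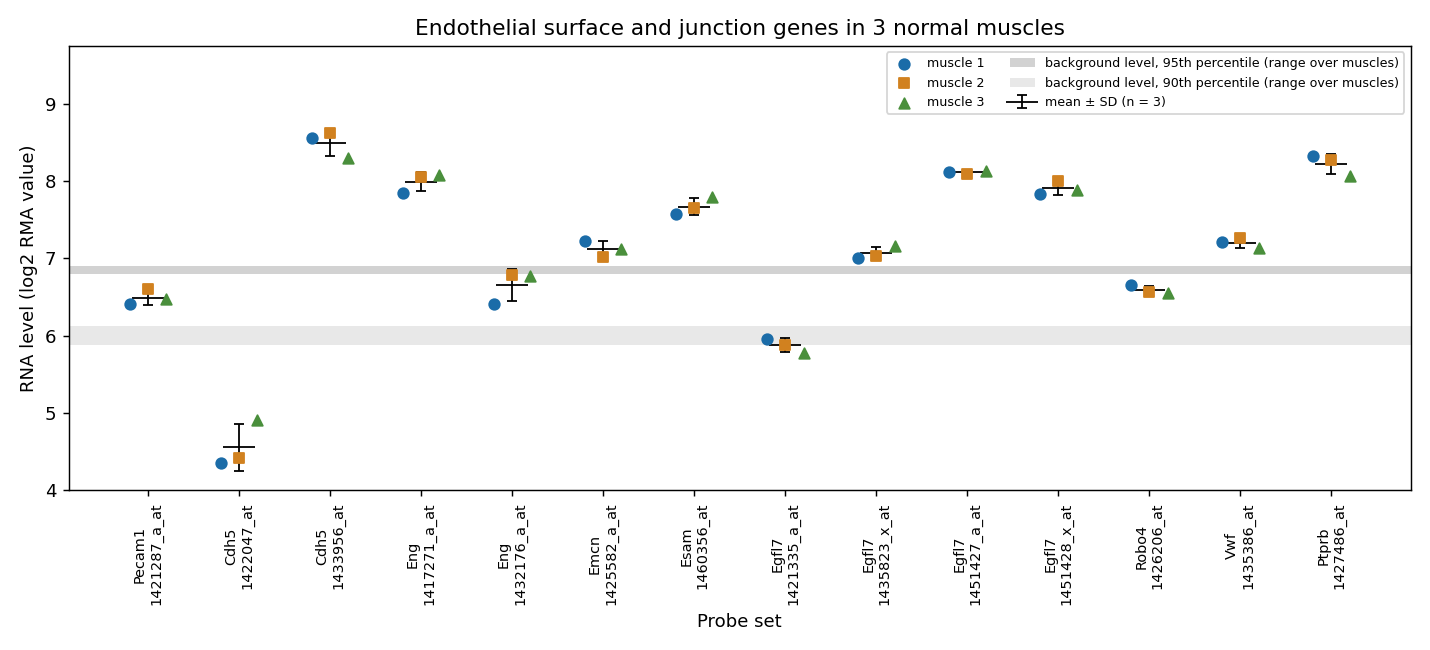
Level of each of the 14 probe sets (log2 RMA value, vertical axis) in muscle 1 (circles), muscle 2 (squares) and muscle 3 (triangles), with mean ± SD (n = 3) and the background levels as grey bands that span the 3 muscles. The 3 muscles span at most 1.25-fold within each probe set above background, and 1.47-fold in the dim Cdh5 probe set. Below the main background band lie 5 probe sets, among them 1 each of Cdh5, Eng and Egfl7.

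Among the junction genes, Cdh5 was measured by a bright and a dim probe set. The bright one (1433956_at) read 8.56, 8.62 and 8.30 in muscles 1 to 3, a mean of 8.49 ± 0.17 (SD, n = 3). Muscle 3 was lowest there, and the span between muscles was 1.25-fold, the widest of the probe sets above background. The dim one (1422047_at) read 4.35, 4.42 and 4.90, below background in every muscle by both levels, so its order of muscles is not read.

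Pecam1, whose product joins endothelial cells and is also carried by platelets and leukocytes, read 6.41, 6.60 and 6.47 in muscles 1 to 3 with its only probe set (1421287_a_at). Its mean of 6.49 ± 0.10 (SD, n = 3) lay between the lax and the main background level in each muscle. Esam, an adhesion molecule of endothelial tight junctions, read 7.57, 7.65 and 7.79 and was highest in muscle 3. Ptprb encodes VE-PTP, a receptor phosphatase that associates with VE-cadherin. Its probe set read 8.32, 8.27 and 8.07, with a mean of 8.22 ± 0.13 (SD, n = 3). As with the bright Cdh5 probe set, muscle 3 was lowest for Ptprb, whereas for Esam it was highest.

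The receptors were Eng and Robo4. Eng encodes endoglin, a co-receptor for ligands of the TGF-beta and BMP families. Its brighter probe set (1417271_a_at) read 7.85 in muscle 1, 8.06 in muscle 2 and 8.08 in muscle 3, with a mean of 7.99 ± 0.13 (SD, n = 3). The dimmer one (1432176_a_at) read 6.41, 6.79 and 6.77, below the main background level, in muscle 2 only just, and above the lax one. In the brighter one muscle 1 was lowest, with a departure of -0.22 from the mean of the other muscles. Robo4, an endothelial member of the roundabout receptor family, read 6.65, 6.56 and 6.55, between the lax and the main background level in each muscle. Its span of 1.07-fold was the second narrowest of the 14, but below the main level it does not show a steady gene.

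Emcn encodes endomucin, a mucin-like glycoprotein found mainly on capillary and venous endothelium. It read 7.22, 7.01 and 7.13, a mean of 7.12 ± 0.11 (SD, n = 3), and was lowest in muscle 2. Ly6c1, a small glycoprotein anchored in the membrane by lipid, could not be separated from Ly6c2, which is known from monocytes. The probe set assigned to both (1421571_a_at) read 10.31, 10.37 and 10.18, and it stays outside the counts of members. It was 0.16 lower in muscle 3 than the mean of the other muscles. In the same muscle the median departure was -0.19 over the 6 leukocyte markers above background and -0.079 over 17 other endothelial genes above it. For the 3 genes restricted to other organs that were above it the median was -0.21, and for 6 VEGF and angiopoietin genes 0.057. These list medians take the brightest probe set of each gene above background in all 3 muscles. Over all probe sets above background in at least 1 muscle, a wider filter, the median departure was -0.038. Of the 9 member probe sets above background 5 departed upwards there, while the bright Cdh5 and the Ptprb probe sets departed by -0.29 and -0.22. The part of leukocyte RNA in the joint reading was not tested.

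Egfl7 and Vwf encode secreted proteins. Vwf, the multimeric protein that tethers platelets to damaged vessel walls, read 7.21, 7.26 and 7.13 with a mean of 7.20 ± 0.07 (SD, n = 3). Egfl7, a matrix-associated factor of vessel formation, had 4 probe sets, more than any other member. In the order of their means they were at 8.11 ± 0.02 (1451427_a_at), 7.91 ± 0.09 (1451428_x_at), 7.07 ± 0.08 (1435823_x_at) and 5.87 ± 0.09 (1421335_a_at) (SD, n = 3). The first read 8.11, 8.09 and 8.13, a span of 1.03-fold, the narrowest of the 14. The fourth read 5.96, 5.88 and 5.78 and was below both background levels.

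Egfl7 is also a host gene. In the RefSeq tables the mature microRNA miR-126a-3p lies within the Egfl7 gene, at chr2:26591402-26591423 on the plus strand of GRCm38.p6. It is shown because an Egfl7 transcript can carry it, with the seed (bases 2 to 8) in capitals, and the probe sets here do not measure the mature RNA.
miR-126a-3p: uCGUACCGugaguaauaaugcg

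Only Egfl7 had more than 1 probe set above background, which gives 3 pairs of readings assigned to the same gene. Whether these probe sets bind RNA of that gene alone was not tested. Of the 3 comparisons between muscles, the first and second Egfl7 probe sets gave the same direction in 1, the first and the third in 2, and the second and the third in 2. The differences between muscles in these probe sets were small, with spans of 1.03-fold, 1.12-fold and 1.11-fold. The probe sets were read on the same arrays, so they are not independent readings of the muscles.

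The members were not all highest or lowest in the same muscle. Of the 9 probe sets above background, 2 were highest in muscle 1, 3 in muscle 2 and 4 in muscle 3, where the shares over the 8711 probe sets above background in at least 1 muscle were 39.8%, 36.7% and 23.5%. Muscle 3 was lowest for 3 of the 9 and for 49.2% of the 8711. For each muscle a departure was taken from the mean of both other muscles. Its median over these 9 probe sets came to 0.0028 for muscle 1, 0.072 for muscle 2 and 0.0084 for muscle 3. Over the 8711 probe sets the medians were 0.025, 0.014 and -0.038. In each muscle 5 of the 9 departures were above 0. The largest in muscle 3 were those of Cdh5, -0.29, Ptprb, -0.22, and Esam, 0.18.

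**Figure D2:**
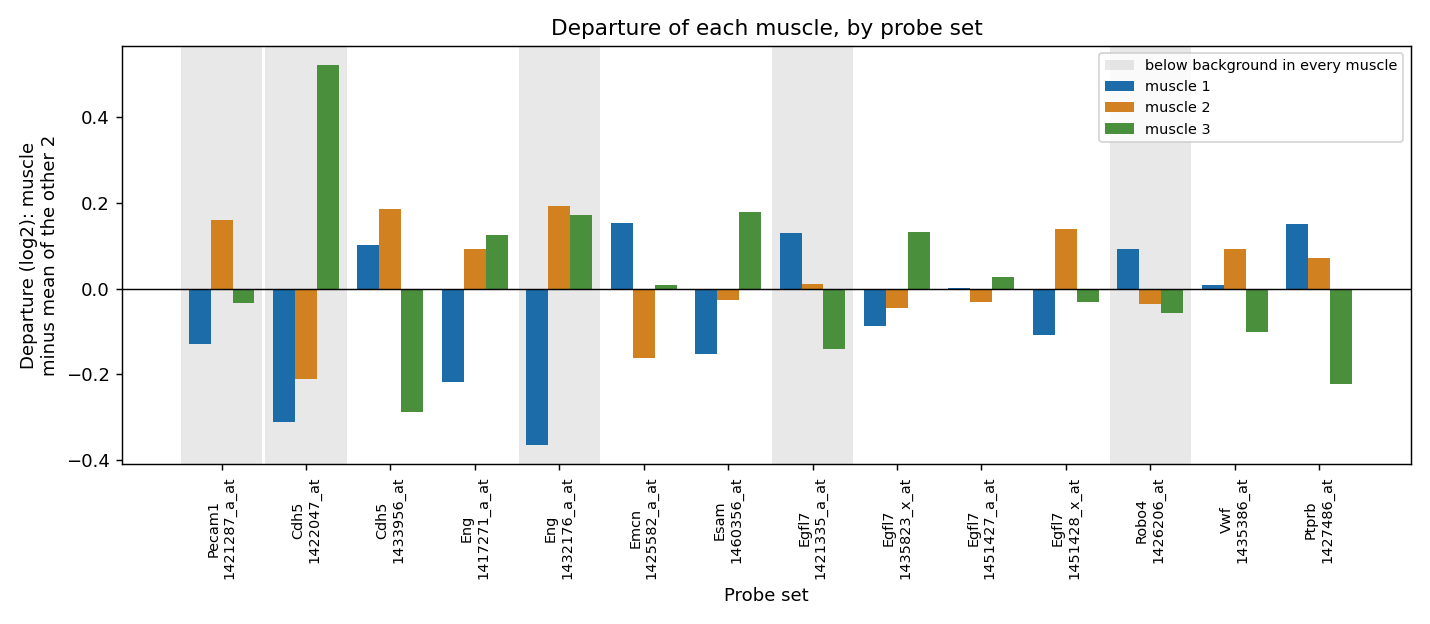
Departure of each muscle from the mean of both others (log2, bars) for the 14 probe sets; grey shading marks those below background in every muscle. Muscle 3 lies below the others for the bright Cdh5 probe set and Ptprb and above them for Esam, and muscle 1 lies below the others in the brighter Eng probe set.

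Spread between muscles was then set beside that of probe sets of like level. The median SD was 0.11 over the 9 member probe sets above background and 0.075 over the 8711. Since the 8711 cover all levels, these medians are not matched for level. Each squared SD was set against limma's prior variance at the same mean level, over 8711 probe sets. F tests (one-sided) were used, with p-values adjusted by Benjamini-Hochberg. The prior SD, the square root of that variance, ran from 0.083 to 0.13 over the 9 member probe sets. Of the 9 member probe sets tested, 0 passed an adjusted p of 0.05 and 0 had an unadjusted p under 0.05, against 0.0918% and 5.01% of all probe sets tested. At such shares a count of 0 of 9 says nothing particular about the members. Cdh5 came closest, with an SD of 0.17 where the prior SD was 0.083, an unadjusted p of 0.080 and an adjusted p of 0.98 by limma. The SD was above the prior SD in 4 probe sets, of Cdh5, Eng, Esam and Ptprb, and below it in 5, of Egfl7, Emcn and Vwf. Over all probe sets 8 passed, and without muscle 1, 2 or 3 the count was 5, 0 and 2, while that of members stayed at 0. A p that misses the threshold does not show that the muscles were alike for these genes.

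**Figure D3:**
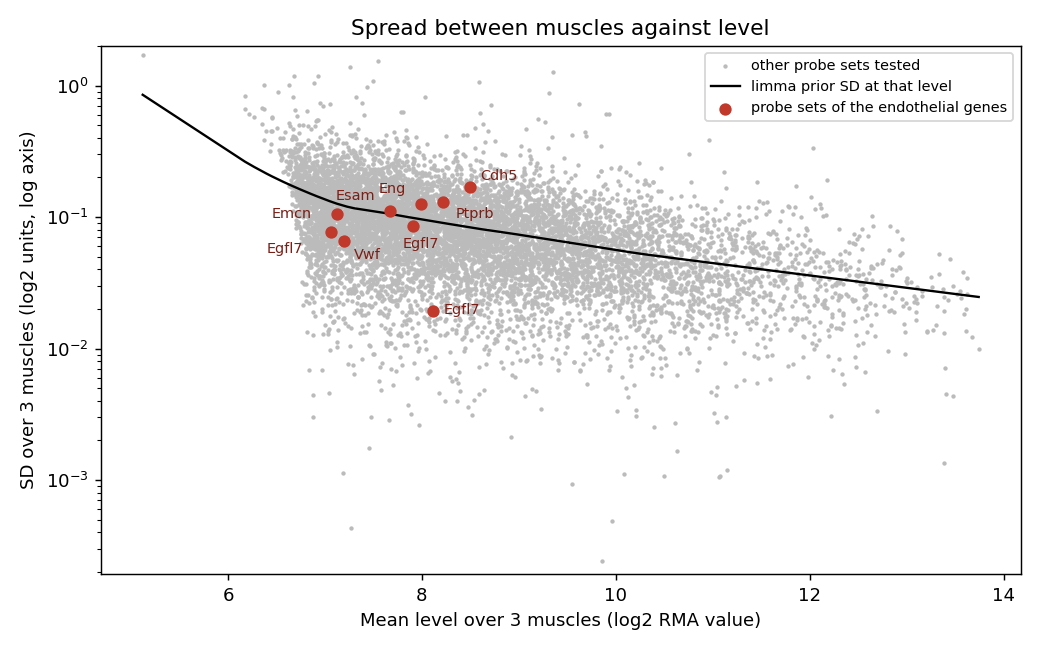
SD over 3 muscles (log2 units, on a log axis) against mean level (log2 RMA value) for the 8711 probe sets tested (grey), with limma's prior SD as a line and the 9 tested probe sets of the endothelial genes in red. Cdh5, Ptprb, Eng and Esam lie above the line and the other 5 below it, all within the cloud of other probe sets.

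Genes that act with the members were in part above background. A gene is judged here by its brightest probe set. By that measure 46.1% of all genes were above background in all 3 muscles. A list count near that share says nothing particular about the list. A gene below background is not shown to lack RNA, since of the 2 Cdh5 probe sets the dim one lay below it and the bright one above. For the partners at junctions the count was 9 of 15. Among the catenins that bind cadherin tails, Ctnnb1 was at 11.37 ± 0.03, Ctnna1 at 9.69 ± 0.13 and Jup at 7.44 ± 0.10, while Ctnnd1 was below the main level at 6.57 ± 0.08 (SD, n = 3). These catenins also serve other cells of the tissue. Of the listed ligands and partners of members, 5 of 17 were above background. The TGF-beta receptors Tgfbr1 and Tgfbr2 were at 9.12 ± 0.12 and 9.55 ± 0.04, whereas Acvrl1, the endothelial receptor that signals with endoglin, was at 4.77 ± 0.20 (SD, n = 3), below background.

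In the VEGF and angiopoietin list 6 of 13 genes were above background, beside 46.1% of all genes. The VEGF receptor Kdr read 7.60, 7.35 and 6.99 in muscles 1 to 3, and its adjusted p by limma's variance test was 0.92. Flt1, the other main VEGF receptor of blood vessels, was at 7.60 ± 0.19 and the angiopoietin receptor Tek at 7.15 ± 0.13, while Flt4 was at 5.67 ± 0.42 (SD, n = 3), below background. Of 18 transcription factors of endothelium 10 were above it. Ets1 and Ets2 were at 8.61 ± 0.15 and 9.23 ± 0.08, and Erg at 5.72 ± 0.09 (SD, n = 3) was below it. Fli1, at 6.66 ± 0.15, was above it in 1 muscle.

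Among other endothelial genes 17 of 23 were above background, Cd34 at 9.72 ± 0.07 and Vcam1 at 7.06 ± 0.14 among them (SD, n = 3). The adhesion genes Icam1 and Sele, unlike Vcam1, were below it, at 5.84 ± 0.06 and 4.18 ± 0.16 (SD, n = 3). Genes of arterial or venous identity were above it in 5 of 10 cases, with the arterial ligand gene Efnb2 at 7.66 ± 0.10 (SD, n = 3). Of the other arterial genes named, Dll4 and Gja4 were below it, at 5.78 ± 0.41 and 6.06 ± 0.13, and Hey1 at 6.78 ± 0.12 was above it in 1 muscle (SD, n = 3). Gja5 and Bmx were also below it in every muscle, and Ephb4, Nr2f2, Aplnr and Ackr1 made up the rest of the 5, as was seen after the values were known. No gene of these lists passed limma's variance test, in which genes below background in every muscle were not tested. Of all probe sets tested 0.0918% passed, so the absence of calls says nothing particular about the lists.

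Cells that share member genes or accompany vessels were read from marker lists. Platelet markers were above background in 1 of 8 cases, Pf4 at 8.89 ± 0.04, with Ppbp, Gp1bb and Gp5 below it at 4.03, 5.38 and 3.45. Their mean level was 5.30, 5.31 and 5.42 in muscles 1 to 3. Leukocyte markers were above background in 6 of 11 cases, with Ptprc at 8.88 ± 0.09 and Csf1r at 9.80 ± 0.09 (SD, n = 3), while Cd68 and Itgam were below it at 5.67 and 3.61. The mean level over the 11 leukocyte markers, those below background included, was 7.16, 7.05 and 7.07 in muscles 1 to 3. The part of platelet or leukocyte RNA in the Pecam1 and Vwf readings was not tested. Of 4 lymphatic markers 1 was above background, Pdpn at 8.02 ± 0.07, and Prox1, the transcription factor of lymphatic identity, was at 2.80 ± 0.28 (SD, n = 3). Mural cell markers were above it in 9 of 10 cases, with Pdgfrb at 9.24 ± 0.15 and Rgs5 at 11.20 ± 0.02, and fibroblast markers in 8 of 8 (SD, n = 3).

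**Figure D4:**
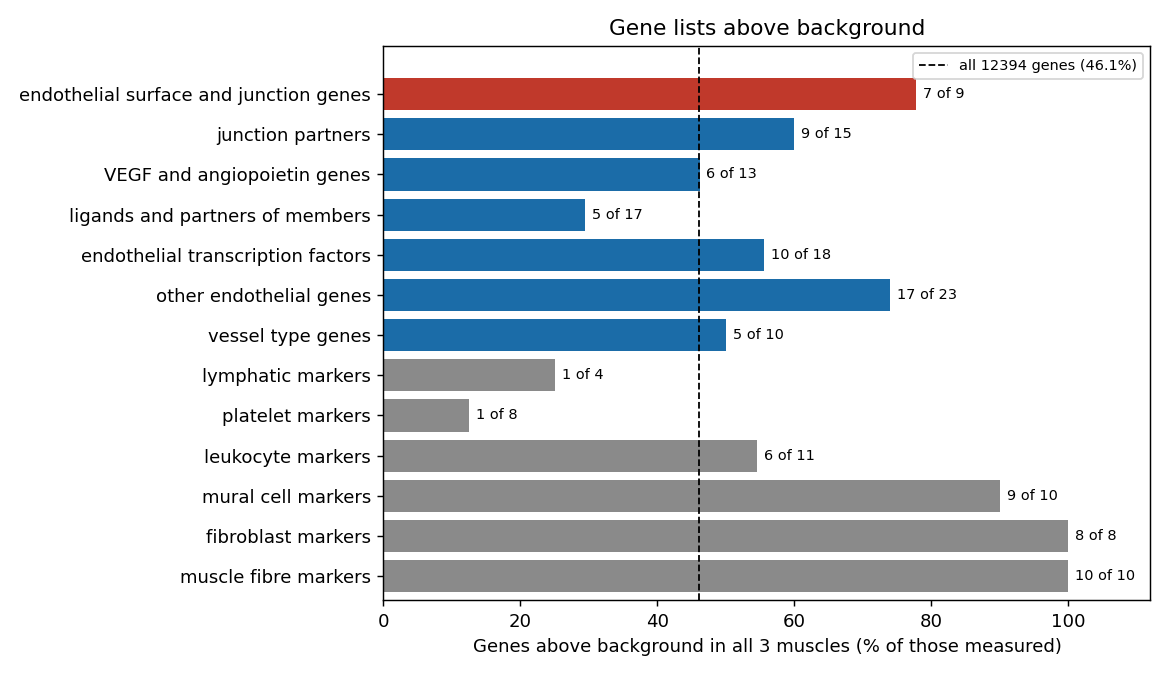
Share of measured genes above background in all 3 muscles (%, horizontal bars from 0), with counts at the bars. Red marks the endothelial surface and junction genes. Blue marks lists of genes that act with them and the lists of endothelial transcription factors, other endothelial genes and vessel type genes. Grey marks markers of other cells, and the dashed line is the share over all 12394 genes. The endothelial surface genes stand at 7 of 9, platelet and lymphatic markers at 1 of 8 and 1 of 4.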

How the data were processed

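RNA of 3 normal muscles was hybridised to 1 array each, from 500 ng of total RNA per the labels' protocols. The deposited table holds the authors' log2 values for each probe set, made with RMA per the submitters' processing notes. The sources used here name neither its version nor the arrays normalized together. Quantile normalization within RMA hides changes shared by most genes. GEO's platform annotation gave 1 gene for 20393 of 22690 probe sets, several for 691 and none for 1606. All 14 member probe sets matched the same symbol in RefSeq (GRCm38.p6) through the Entrez gene number. The file's values were used as deposited.

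Means and SDs were taken over the muscles. The variance test used squeezeVar of limma 3.58.1 in R 4.3.3 (robust, with a trend on level, 2 degrees of freedom), over probe sets above background in at least 1 muscle, and was tested on simulated data. Named genes are all members and the first 4 measured genes of each list. Members, lists and tests were chosen with earlier results of these data known. Promoters held the 250 bases before a start, searched on both strands. Alternatives covered scaling, background level, filter, prior, probe set summary and leaving out each muscle. Other steps used Python 3.11.15, numpy 2.4.6, pandas 2.3.3 and matplotlib 3.10.9.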

Additional observations from a re-analysis of the deposited data

How the results depend on the processing

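Levels of the 14 probe sets moved by less than their SD under quantile normalization. Median centring and leaving out 1 of 3 muscles cannot move a mean by as much, and leaving out a muscle could not change the count above background, so neither shows stability. The count of 9 member probe sets above background became 5 at the 99th percentile of the background probe sets and 12 at the 90th. The number of members with excess variance by limma was 0 under each alternative run, with 0 at an unadjusted p under 0.05 and a smallest unadjusted p between 0.055 and 0.14. Over all probe sets the count of 8 became 24 after quantile normalization, 17 without the background filter (more probe sets tested), 4 with the brightest probe set per gene, and 0 with probe sets of a gene averaged, without the trend or without the robust fit; at an unadjusted p under 0.05 those last 3 gave 216, 311 and 369. When 1 muscle was left out it ran from 0 to 5, with 366 at an unadjusted p under 0.05 in the case of 0. The median departure of members in muscle 1, 0.0028, became -0.056 without muscle 3 and -0.042 without the filter. It became -0.031 after quantile normalization and -0.0019 after median centring. The median in muscle 2, 0.072, became -0.021 without muscle 1. With 1 muscle left out the medians of muscles 1 and 2 ran from -0.056 to -0.016 and from -0.021 to 0.056. The muscles that remain then have departures of equal size and opposite sign, so these values are not separate evidence. The median in muscle 3, 0.0084, became -0.012 without the filter and 0.042 after quantile normalization. None of the 3 medians has a settled sign, and the cause was not tested. No paired analysis was possible because the samples form 1 group. Signal over background limits several members: Pecam1 and Robo4 pass at the 90th percentile alone, and Emcn, Esam and Vwf pass at the 95th but not at the 99th in all 3 muscles.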
